A study of Mus musculus with 6 samples.

Results

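The genes described here are 45 members of fatty acid oxidation and the tricarboxylic acid (TCA) cycle, taken by gene symbol from a table of 34361 mouse genes. They were picked by pathway role, with earlier results of these data known, so their counts beside all genes are descriptions. They were sorted into 7 steps, which are fatty acid uptake and activation, the carnitine shuttle, beta oxidation, pyruvate entry, the TCA cycle, ketone use, and regulation with uncoupling. All 45 were found in the table and all 45 passed the filter on low counts, which 20388 genes passed.

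The study sequenced poly(A)-selected RNA of mouse femora, 3 libraries from animals given tamoxifen to switch on a gene knockout and 3 from animals that received corn oil. The design text says that each group was 3 mice and names the knocked-out gene as Fshr, the receptor for follicle-stimulating hormone, while the treatment label names FGF21, a metabolic hormone. The libraries are therefore called knockout-labelled. Only those animals had tamoxifen, so drug and knockout cannot be told apart. The series title speaks of osteocytes, ovariectomy and fracture, but the labels do not give the surgery, age, sex or strain of these animals, the cells in which the knockout was induced, or whether the controls carry the same alleles. Fshr and Fgf21 were listed at 0 estimated counts in all 6 libraries, so neither gene checks the labels (a count of 0 allows up to 0.163 to 0.182 counts per M counts, for counting error only).

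In mitochondria, fatty acids are broken down by beta oxidation to acetyl-CoA, and pyruvate is turned into acetyl-CoA by the pyruvate dehydrogenase complex. The TCA cycle oxidizes acetyl-CoA and passes electrons to the respiratory chain. Oxidative muscle, heart and brown fat carry high levels of these enzymes. In bone, both osteoblasts and osteoclasts contain them, and a whole femur sample can also hold marrow, fat and attached muscle.

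The sum of estimated counts was 65.8 to 73.5 M per library. These probably overstate depth, since 43.8% to 49.2% of low counts fell on 4, 8 or 12. Taking 4 counts as 1 read pair gives 16.4 to 18.4 M pairs per library. That factor is an assumption and was not checked against read totals. Bone markers were present in every library. Lists are given as genes past an edgeR adjusted p of 0.05. The osteoblast list, led by Col1a1, was lower in the knockout-labelled libraries for 7 of 7 genes (median log2 fold change -1.94), and so was the osteoclast list, led by Ctsk, for 7 of 7 (median -2.32). The osteocyte list was mixed, with 2 of 6 genes higher and 3 lower (median -0.27). The neutrophil list was lower for 7 of 7 (median -0.89). The skeletal muscle list was higher for 16 of 16 genes (median 2.69), the slow muscle fibre list for 8 of 8 (median 1.24), the adipocyte list for 9 of 10 (median 2.89) and the erythroid list for 7 of 7 (median 1.42). Skeletal muscle genes held 10.8% of counts in the knockout-labelled libraries and 2.17% in the controls. Their summed FPKM (fragments per kilobase of transcript, scaled to depth) was 41714 to 42330 against 8615 to 8748. The summed liver list was 0.564 to 0.935 FPKM over all 6 libraries. The summed cardiac list was 7.55 to 7.99 FPKM in the knockout-labelled libraries and 3.38 to 4.35 in the controls, with 2 of 4 tested genes higher and 1 lower. In brown adipocyte genes the direction was mixed, with 4 of 6 higher and 2 lower, Ucp1 among the lower, and with library totals in place of TMM 1 was higher and 2 were lower. Of 6 endothelial genes 4 were higher and 1 lower, and with library totals 0 were higher and 5 lower.

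Of the 45 members, 44 were higher in the knockout-labelled libraries and 1, Cpt1a, was lower. The test was edgeR's quasi-likelihood F test, with Benjamini-Hochberg adjusted p under 0.05 over all 20388 genes. By the same rule 28.7% of all genes were called higher and 28.8% lower, 57.5% in either direction. The median log2 fold change of the members was 1.41, with a range from -0.47 to 2.15, while the median of all tested genes was -0.02. At least 2-fold higher were 41 members, a size that 12.1% of all genes reached. This count depends on the scaling, with 21 members at least 2-fold higher by library totals, 19 on log2(FPKM + 1) and 5 on log2(TPM + 1). These scalings lowered the log2 fold changes of all genes too, with median shifts of -0.42, -0.37 and -0.73 in that order. The share of all genes at least 2-fold higher was not counted under them, so the drop is not particular to the members. In TMM-scaled CPM (counts per M, with edgeR's scaling factors) 44 members had all 3 knockout-labelled libraries above all 3 controls, which 31.9% of all genes showed, and 1 had all of them below, which 32.6% showed. Together the members took 1.13% of counts, from 1.12% to 1.13%, against 0.562% in the controls, from 0.558% to 0.566%. In a whole tissue, a higher share of such a cell type and more RNA per cell cannot be told apart. Muscle, fat and erythroid markers, and 2 cardiac ones, rose in the same libraries, and their part in the result was not tested.

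Libraries of a group differed by more than counting alone would give. Estimated counts divided by 4 stood for read pairs here. Over pairs of libraries of the same group, the median chi-square per gene was 0.697 to 0.746, where counting noise gives 0.455. The mean was 2.08 to 2.61, where counting noise gives 1. That spread was still small. For genes with 1000 or more read pairs, the log2 ratio between 2 libraries of a group had an SD of 0.063 to 0.085. The skeletal muscle share ran from 10.7% to 10.8% of counts in the knockout-labelled libraries and from 2.15% to 2.19% in the controls. The edgeR p-values weigh group differences against this spread between 3 libraries per group, so their small size rests on it. The source of the spread, and whether each library is 1 separate animal, was not tested. An exact permutation test of 3 against 3 libraries cannot go below p = 0.1.

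**Figure D1:**
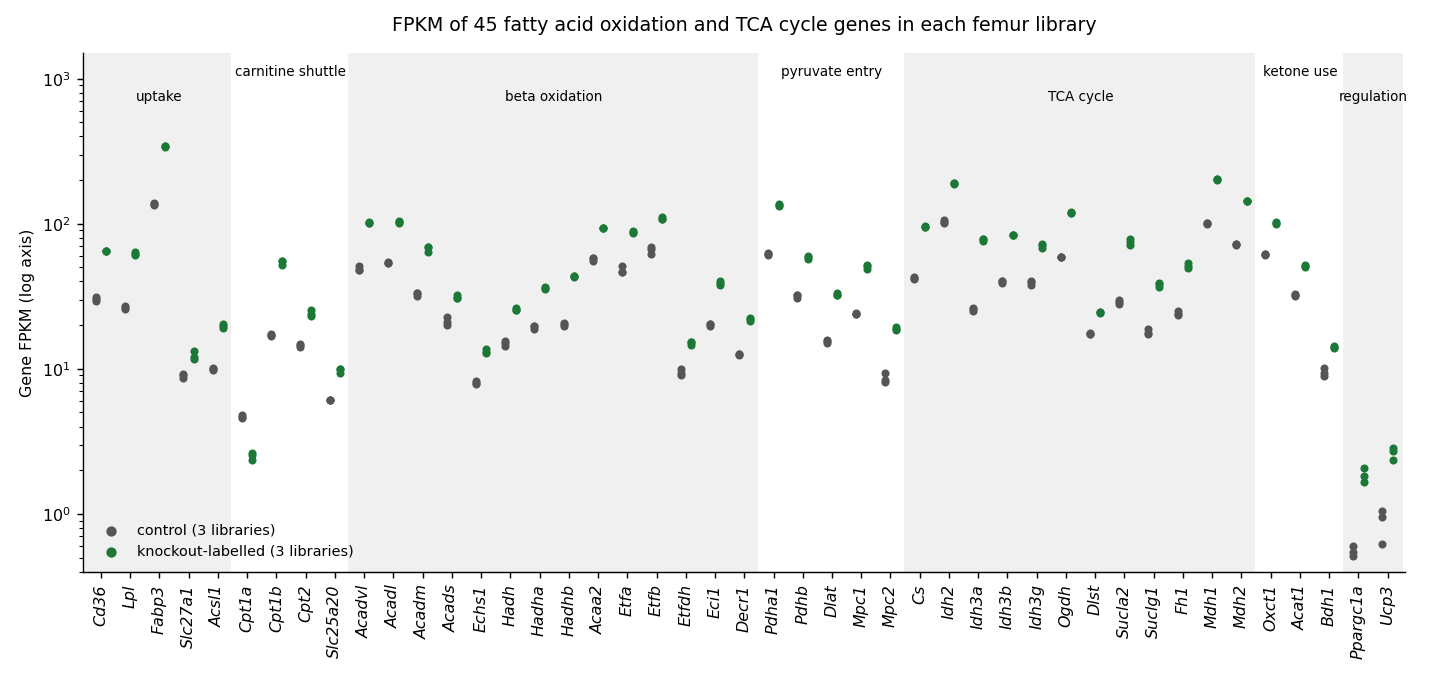
Gene FPKM (log axis) of the 45 members in 3 control libraries (grey points) and 3 knockout-labelled libraries (green points), grouped by step. The green points lie above the grey ones for every gene except Cpt1a, where they lie below.

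FPKM values are as deposited and were not rescaled, so the ratio of 2 FPKM means is smaller than the TMM-scaled fold change. TMM scaling raised the knockout-labelled values relative to the controls, with factors of 0.863 to 0.866 against 1.16.

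In fatty acid uptake and activation, 5 of 5 members rose, with a median log2 fold change of 1.52. Fabp3 encodes the fatty acid binding protein of heart and muscle. Its FPKM was 343, 343 and 339 in the knockout-labelled libraries and 138, 136 and 135 in the controls, a log2 fold change of 1.75 (SE 0.01, edgeR adjusted p = 2.17e-14). The groups lay far apart, and the libraries within a group were close. Lpl, the lipase that frees fatty acids from circulating triglyceride, had a mean FPKM of 62.4 ± 1.31 against 26.7 ± 0.612 (SD, n = 3) and a log2 fold change of 1.65. Cd36, a fatty acid transporter of the cell surface, stood at 64.6 ± 0.176 against 30.2 ± 0.965 (SD, n = 3), a log2 fold change of 1.52. Acsl1, which links fatty acids to coenzyme A, had a log2 fold change of 1.42. Slc27a1, another fatty acid transporter, changed less. Its FPKM was 11.7, 13.4 and 12.1 against 9.24, 9.0 and 8.60, and its log2 fold change was 0.89 (SE 0.06, edgeR adjusted p = 1.14e-08). No overlap remained between its groups, but on log2(TPM + 1) its change of 0.11 did not pass (limma adjusted p = 0.095).

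The carnitine shuttle carries long-chain fatty acids across the inner mitochondrial membrane. Its gatekeeper, carnitine palmitoyltransferase 1, has a liver form that many tissues also use, Cpt1a (chr19:3372334-3435733, plus strand, GRCm39), and a muscle form, Cpt1b (chr15:89300608-89310066, minus strand, GRCm39). Cpt1b FPKM was 55.1, 51.7 and 55.0 in the knockout-labelled libraries against 17.3, 17.1 and 16.7 in the controls. Every knockout-labelled library was above every control, with a log2 fold change of 2.09 (SE 0.03, edgeR adjusted p = 9.67e-14), the second largest among the members. Cpt1a FPKM was 2.36, 2.62 and 2.56 against 4.66, 4.82 and 4.56. Here the 3 knockout-labelled libraries were all below the controls, and the log2 fold change was -0.47 (SE 0.05, edgeR adjusted p = 2.39e-05). Cpt1a kept this direction under every scaling tried.

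Within a library, gene FPKM of Cpt1b was 23.4, 19.8 and 21.5 times that of Cpt1a in the knockout-labelled libraries and 3.72, 3.53 and 3.67 times in the controls. The change was 2.56 on the log2 scale, or 5.90-fold, with no overlap (exact permutation p = 0.1, two-sided, adjusted 0.13 over 12 pairs). Gene FPKM in the table was not the sum of the transcript FPKM for many genes, so levels between genes are better compared on that sum, which is per length. On it the ratio was 14.3 ± 1.26 against 2.42 ± 0.0505 (SD, n = 3). Such a ratio within a library does not depend on scaling between libraries. An overlapping gene on the same strand as Cpt1b, Gm44502, had a mean of 1.94 FPKM over all 6 libraries, far under the 35.5 of Cpt1b. The other carnitine steps were also higher. Cpt2, which hands the acyl group back to coenzyme A inside the membrane, had a log2 fold change of 1.16, and Slc25a20, the carrier that swaps carnitine and acylcarnitine, had 1.11.

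**Figure D2:**
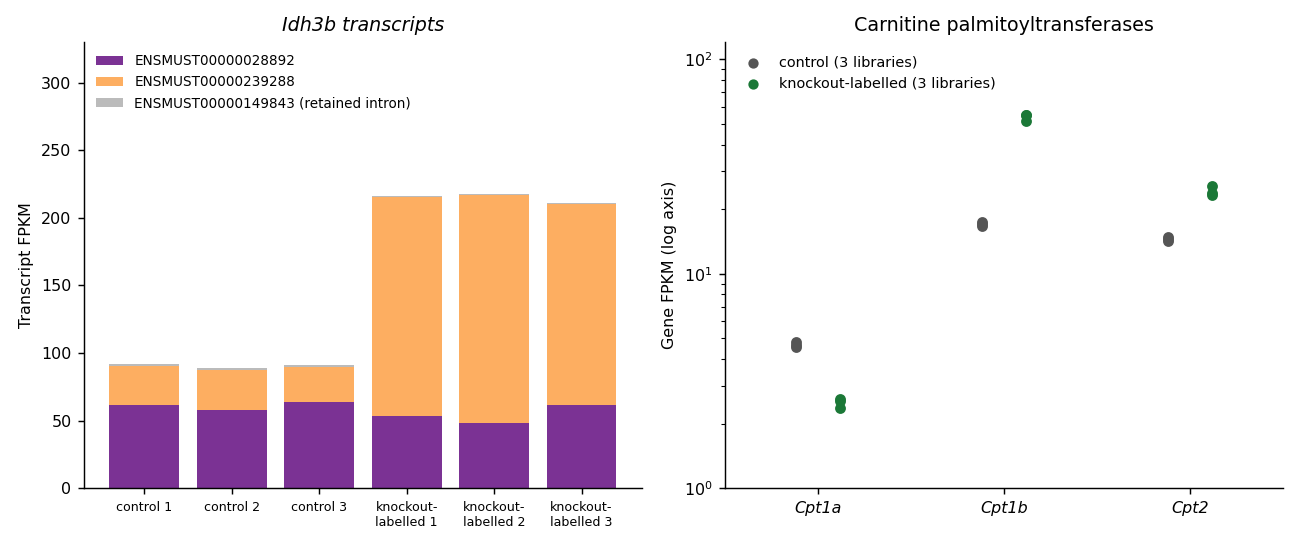
Left: stacked transcript FPKM of Idh3b in each of the 6 libraries, with ENSMUST00000028892 in purple, ENSMUST00000239288 in orange and a retained-intron transcript in grey. Right: gene FPKM (log axis) of Cpt1a, Cpt1b and Cpt2 in 3 control (grey) and 3 knockout-labelled (green) libraries, where Cpt1a is the only gene with lower green points.

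In beta oxidation, 14 of 14 members rose, over a narrow range of log2 fold changes from 0.98 to 1.53 (median 1.26). The first oxidation is made by acyl-CoA dehydrogenases that differ in the chain length they take. The log2 fold change was 1.48 for the very long-chain enzyme Acadvl, 1.35 for the long-chain enzyme Acadl, 1.47 for the medium-chain enzyme Acadm and 0.98 for the short-chain enzyme Acads. Acads FPKM was 30.6, 30.6 and 32.2 against 22.9, 20.9 and 19.9, again without overlap. It was the smallest change of the step. Acadvl FPKM was 102 in each of the 3 knockout-labelled libraries and 48.1, 51.2 and 48.0 in the controls.

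The middle of the spiral was raised to a similar extent. Echs1, the short-chain enoyl-CoA hydratase, had a log2 fold change of 1.15, and Hadh, the short-chain hydroxyacyl-CoA dehydrogenase, 1.20. Acaa2, the thiolase of the matrix, had 1.14. Eci1 and Decr1, which prepare unsaturated chains for the spiral, had 1.38 and 1.23. The electron acceptors followed, with 1.30 for Etfa and 1.14 for Etfb, the 2 subunits of electron transfer flavoprotein, and 1.10 for Etfdh, which passes the electrons to ubiquinone. Etfa FPKM was 89.7, 87.6 and 85.8 against 46.7, 50.8 and 46.3.

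Hadha and Hadhb encode the alpha and beta subunits of the mitochondrial trifunctional protein, which does the last 3 reactions on long chains. Hadha FPKM was 35.2, 36.9 and 36.3 in the knockout-labelled libraries and 19.0, 19.8 and 19.9 in the controls. Hadhb FPKM was 42.6, 43.7 and 44.0 against 19.8, 20.3 and 20.6. Neither gene's groups overlapped. The log2 fold change was 1.31 (SE 0.03) for Hadha and 1.53 (SE 0.02) for Hadhb. The ratio of Hadha to Hadhb was lower in all 3 knockout-labelled libraries, by a log2 change of -0.22 (exact permutation p = 0.1, adjusted 0.13). Reads of Hadhb can also match a listed copy, Hadhb-ps, whose mean FPKM of 53.3 against 25.6 moved by 1.48 on the log2 scale. How reads were shared between them affects the level of Hadhb, whose summed transcript FPKM was 140 against 65.3. The genes lie head to head on chromosome 5. The 272 bases between their RefSeq starts (GRCm38.p6, chr5:30154981-30155252, plus strand, Hadha to the left and Hadhb to the right) are shown because both genes start from this stretch and both rose. Capitals mark the 2 GC boxes with the letters GGGCGG on this strand.
Hadha-Hadhb: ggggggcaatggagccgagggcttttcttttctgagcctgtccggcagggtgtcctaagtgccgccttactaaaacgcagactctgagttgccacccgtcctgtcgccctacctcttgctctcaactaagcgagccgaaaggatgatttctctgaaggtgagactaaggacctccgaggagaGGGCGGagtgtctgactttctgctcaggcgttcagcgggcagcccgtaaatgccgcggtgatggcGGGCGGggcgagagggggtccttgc

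Pyruvate entry links glycolysis to the cycle, and 5 of 5 members rose (median log2 fold change 1.51, range 1.32 to 1.56). Mpc1 and Mpc2 form the mitochondrial pyruvate carrier. Mpc2 FPKM was 19.4, 18.4 and 18.8 against 8.09, 9.35 and 8.34, a log2 fold change of 1.56 (SE 0.07, edgeR adjusted p = 5.92e-11). Mpc1 had 1.50, and the ratio of Mpc1 to Mpc2 overlapped between groups (log2 change -0.07, exact permutation p = 0.5). A listed copy, Mpc1-ps, stood at a gene FPKM of 252 against 121 and moved by 1.48. Mpc1 itself had a gene FPKM of 50.6 against 24.0 and a summed transcript FPKM of 122 against 55.7. The copy was above Mpc1 on both measures, by less on the sum, so the level of Mpc1 is uncertain.

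The pyruvate dehydrogenase complex starts with the alpha and beta subunits encoded by Pdha1 and Pdhb and hands its acetyl group to Dlat. Pdha1 FPKM was 133, 137 and 135 against 62.5, 61.7 and 61.1, the log2 fold change 1.55 (SE 0.01, edgeR adjusted p = 1.57e-14). Pdhb had 1.32 and Dlat 1.51. The ratio of Pdha1 to Pdhb was higher in every knockout-labelled library, with a log2 change of 0.23 (exact permutation p = 0.1, adjusted 0.13).

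In the TCA cycle, 12 of 12 members rose (median log2 fold change 1.47, range 0.92 to 2.01). Cs, citrate synthase, brings acetyl-CoA into the cycle. Its FPKM was 96.2, 95.5 and 95.0 against 43.0, 41.7 and 42.5, a log2 fold change of 1.60 (SE 0.01, edgeR adjusted p = 1.36e-14). The groups lay far apart, and Cs had the smallest adjusted p of the members. Idh2, the NADP-dependent isocitrate dehydrogenase of mitochondria, had 1.30. Its ratio to Idh1, the cytosolic form, was higher by 1.85 on the log2 scale with no overlap (exact permutation p = 0.1, adjusted 0.13).

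The NAD-dependent isocitrate dehydrogenase is built from the catalytic alpha subunit Idh3a and the beta and gamma subunits Idh3b and Idh3g. Idh3a FPKM was 75.6, 77.9 and 78.1 in the knockout-labelled libraries and 25.1, 25.9 and 26.2 in the controls. Its log2 fold change of 2.01 (SE 0.03, edgeR adjusted p = 1.49e-14) was the largest in the cycle. Idh3b FPKM was 84.0, 84.1 and 83.1 against 40.2, 39.0 and 40.3, a log2 fold change of 1.50 (SE 0.02). Idh3g FPKM was 71.5, 72.9 and 67.5 against 40.4, 38.0 and 39.9, a log2 fold change of 1.27 (SE 0.04). All subunits rose without overlap, but not to the same degree. On gene FPKM, Idh3a rose over Idh3g by 0.74 and over Idh3b by 0.51 on the log2 scale, in all 3 libraries (exact permutation p = 0.1 for each, adjusted 0.13). On summed transcript FPKM the ratio of Idh3a to Idh3g was 1.38 ± 0.106 against 0.774 ± 0.0563 (SD, n = 3). That of Idh3a to Idh3b was 0.732 ± 0.0202 against 0.576 ± 0.0185, a smaller change than on gene FPKM. In the sum for Idh3g, a retained-intron transcript held 49.8% ± 9.35 against 41.3% ± 15.3 (SD, n = 3). The ratio to Idh3g is therefore not one of coding transcripts alone.

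Further round the cycle, Ogdh and Dlst are parts of the oxoglutarate dehydrogenase complex. Ogdh had a log2 fold change of 1.44. Dlst was the member of the cycle that rose least, with FPKM of 24.3, 24.8 and 24.5 against 17.4, 17.7 and 17.4 and a log2 fold change of 0.92 (SE 0.01, edgeR adjusted p = 8.09e-12). Its groups were still clearly apart. Succinyl-CoA synthetase pairs the alpha subunit Suclg1 with Sucla2 in its ATP-forming version. Sucla2 FPKM was 71.3, 75.4 and 78.1 against 29.0, 29.8 and 27.8, a log2 fold change of 1.80 (SE 0.05), while Suclg1 had 1.51. The ratio of Suclg1 to Sucla2 was lower in every knockout-labelled library (log2 change -0.29, exact permutation p = 0.1, adjusted 0.13). Fh1, fumarase, had 1.53. The malate dehydrogenases Mdh1 of the cytosol and Mdh2 of the mitochondrion had 1.44 and 1.41, and their ratio overlapped between groups (log2 change -0.03, exact permutation p = 0.4).

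**Figure D3:**
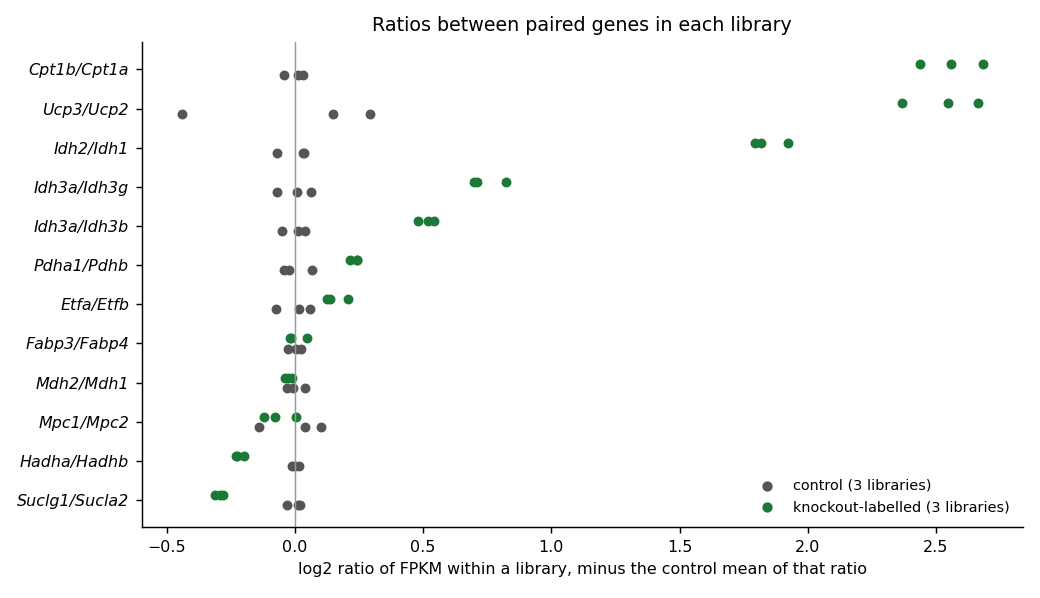
Log2 ratio of gene FPKM within a library for 12 gene pairs, minus the control mean of that ratio, in 3 control (grey) and 3 knockout-labelled (green) libraries. Cpt1b/Cpt1a, Ucp3/Ucp2 and Idh2/Idh1 lie farthest to the right, and Fabp3/Fabp4, Mdh2/Mdh1 and Mpc1/Mpc2 overlap.

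Idh3b (chr2:130121229-130126467, minus strand, GRCm39) also changed in which transcript was read. ENSMUST00000239288 held 75.0%, 77.5% and 70.4% of the transcript FPKM of Idh3b in the knockout-labelled libraries and 31.6%, 32.9% and 28.6% in the controls. The difference of 43.3 percentage points was the largest among the 23 members with at least 2 transcripts at a mean FPKM of 1 or more (exact permutation p = 0.1, adjusted 0.33 over these genes). Its FPKM was 162, 169 and 149 against 29.1, 29.4 and 26.1, a log2 fold change of 2.95 (edgeR adjusted p = 6.45e-06). ENSMUST00000028892 had 53.2, 47.9 and 61.3 FPKM against 61.3, 58.0 and 63.8, and its log2 fold change of 0.28 did not pass (edgeR adjusted p = 0.135). The groups are thus apart for the first transcript and overlap for the second. Tested over all genes with edgeR's diffSpliceDGE, a test chosen after seeing the data, transcript use of Idh3b differed at the gene level with an adjusted p of 3.08e-06. The tests of single transcripts did not pass, with an adjusted p of 0.0636 for ENSMUST00000239288 and 0.227 for ENSMUST00000028892.

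Both Idh3b transcripts have 12 exons, and their lengths are 1616 bases for ENSMUST00000028892 and 1233 for ENSMUST00000239288. Of the difference of 383 bases, 94 come from the outer ends and 289 lie inside. The annotation of the older build (GENCODE M21) has a second acceptor 289 bases into the last exon in another transcript, ENSMUST00000184538, while no other exon of ENSMUST00000028892 is longer than 166 bases. In cattle, alternative splicing of this gene is known to give beta subunits with different C-terminal ends in different tissues. The exon before the last (lower case) and the coding part of the last exon (capitals, ending in the stop codon) of ENSMUST00000028892 are shown, since this is the end of the coding sequence where the annotated acceptors differ. The exons lie on the minus strand within chr2:130279640-130280323 of GRCm38, and the 87 coding bases belong to a last exon of 418.
Idh3b: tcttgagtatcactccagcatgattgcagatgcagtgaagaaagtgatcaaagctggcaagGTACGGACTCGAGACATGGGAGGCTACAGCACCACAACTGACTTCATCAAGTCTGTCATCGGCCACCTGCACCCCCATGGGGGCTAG

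Of 35 members that could be tested for transcript use, 10 were called, where 9% of all such genes were. Beside Idh3b these were Acadvl, Acadm, Hadh, Hadha, Hadhb, Pdhb, Idh2, Sucla2 and Suclg1. Shifts could be small. The leading share of Idh2 was 98.3% ± 0.259 against 96.4% ± 0.421 (SD, n = 3), that of Pdhb 97.9% ± 0.288 against 95.2% ± 0.379, and that of Hadha 98.2% ± 0.322 against 94.8% ± 0.982. As shares of estimated counts the difference was smaller for Idh2 (1.08 points) and Hadha (0.864), but larger for Pdhb (3.40 against 2.72 by FPKM). In 11 of the 23 members with several transcripts the leading share ranged over more than 20 points within a single group, which shows that the split among transcripts of those genes was unstable. For Acadvl the control libraries ran from 44.1% to 93.3%.

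Ketone use comprised 3 members, and 3 of 3 rose (median log2 fold change 1.10). Oxct1 transfers coenzyme A to acetoacetate, the step that lets peripheral tissues burn ketone bodies. Its FPKM was 101.1 ± 1.11 against 61.5 ± 0.636 (SD, n = 3), a log2 fold change of 1.14 (SE 0.01, edgeR adjusted p = 3.55e-13). Acat1, the thiolase that splits acetoacetyl-CoA, had 1.10. Bdh1, which oxidizes hydroxybutyrate, had FPKM of 14.0, 14.1 and 14.5 against 8.92, 10.2 and 9.31 and a log2 fold change of 1.01 (SE 0.06).

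The regulator and the uncoupling protein were the least abundant members. Ppargc1a is a coactivator that switches on mitochondrial genes. Its FPKM was 2.08, 1.65 and 1.82 in the knockout-labelled libraries against 0.516, 0.548 and 0.605 in the controls, and its log2 fold change of 2.15 (SE 0.12, edgeR adjusted p = 1.67e-08) was the largest of all members. Ucp3, the uncoupling protein of skeletal muscle and brown fat, had FPKM of 2.72, 2.35 and 2.84 against 0.624, 0.951 and 1.05. Its log2 fold change was 2.00 (SE 0.25, edgeR adjusted p = 1.43e-06). Both were above all controls in every knockout-labelled library, with wider spread than the enzymes. The ratio of Ucp3 to Ucp2, a form found in many tissues and blood cells, was higher by 2.53 on the log2 scale (exact permutation p = 0.1, adjusted 0.13).

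**Figure D4:**
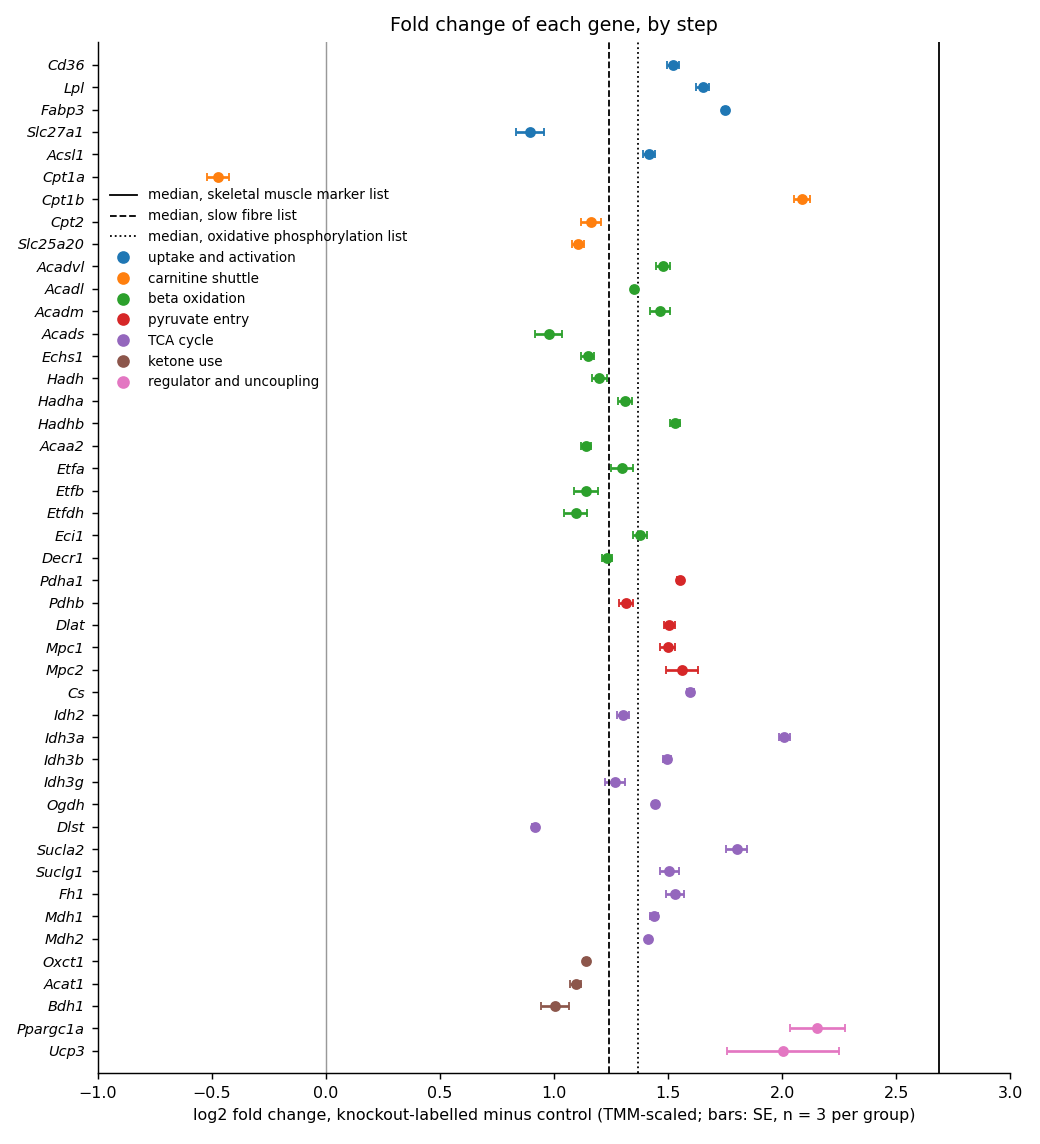
TMM-scaled log2 fold change of each member (points, with bars for the SE, n = 3 per group), coloured by step, with vertical lines at the medians of the skeletal muscle, slow fibre and oxidative phosphorylation lists. Every member lies left of the skeletal muscle median of 2.69, and Cpt1a alone lies left of 0.

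Levels between genes were compared on the summed transcript FPKM, which is per length. In the controls the most abundant members were Mdh2 at 178, Idh2 at 155, Fabp3 at 136, Mdh1 at 130 and Etfb at 109. In the knockout-labelled libraries Mdh2 at 353 and Fabp3 at 341 led, then Idh2 at 283, Mdh1 at 264 and Idh3b at 215. Idh3a moved from rank 24 to rank 11 of 45, and Dlst from rank 13 to rank 25. The order thus changed little at the top.

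The members were set beside the other lists measured in the same fit. Their median log2 fold change was below that of the skeletal muscle list by 1.28 (a difference of -1.28), and 0 of 45 members lay above that list's median. It differed from the slow muscle fibre list by 0.17, and 30 of 45 members lay above that median. Of the nuclear oxidative phosphorylation genes, 21 of 22 rose and Cox6a1 fell, with a median of 1.37, and 24 of 45 members lay above it. Of the glycolysis genes, 13 of 17 rose and 3 fell (11 and 5 on log2(TPM + 1)), with a median of 1.61, and 7 of 45 members lay above it. These medians are descriptions, and no test was made between lists. When libraries were scaled so that the summed skeletal muscle list was equal in all of them, 0 members were higher and 45 were lower, with a median log2 fold change of -1.32. Of all 20388 genes, 99 were higher and 19366 lower under this scaling, which by construction lowered fold changes by 2.73, so the count says nothing particular about the members.

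Promoters were read for 39 of 45 members from RefSeq windows of 300 bases around the start (GRCm38.p6), and letters were searched on both strands. The GC box GGGCGG occurred in 28 of 39 members (71.8%) and in 38.2% of all 27025 genes with a window. CCAAT occurred in 17 members (43.6%) against 41.1% of all. The ETS letters CCGGAAG occurred in 6 members (Cpt2, Dlst, Idh3b, Idh3g, Mpc1 and Slc25a20) and in 9.93% of all. The nuclear receptor letters AAGGTCA, which overlap the longer estrogen-related receptor element TCAAGGTCA, occurred in Acadm and Ogdh and in 5.38% of all. TCAAGGTCA itself occurred in 0 members, against 0.466% of all. A match describes letters and not a bound site.

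Other genes of the same pathways moved less uniformly. Counts under other scalings, given below, stand beside a shift over all genes. Library totals called 3379 of all 20388 genes higher and 10339 lower, and log2(TPM + 1) called 1832 and 10738 of 13778. Of 12 further TCA and pyruvate enzymes, 9 rose and 1 fell, with a median log2 fold change of 1.18. The succinate dehydrogenase subunits Sdhb (1.59) and Sdha (1.27), Dld (1.11), the dihydrolipoamide dehydrogenase shared by the 2-oxoacid complexes, Pdhx (1.50) and pyruvate carboxylase Pcx (2.47) rose. Pcx FPKM was 28.3, 28.6 and 30.0 against 7.27, 6.69 and 7.12. Cytosolic Idh1 fell by 0.54. These genes kept their directions under the 5 scalings tried.

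The enzymes that switch pyruvate dehydrogenase off and on were split, with 4 of 7 higher and 2 lower, or 3 lower with library totals. The kinase Pdk2 rose by 2.01 on the log2 scale and the phosphatase Pdp1 by 1.59, as did the phosphatase regulator Pdpr by 1.21 and the kinase Pdk1 by 0.91. Pdk3 fell by 0.80 and Pdp2 fell by 0.45. Pdk4, a kinase induced by fasting, had FPKM of 14.5, 14.1 and 14.5 against 19.8, 20.5 and 19.4, and its log2 fold change of -0.04 did not pass (edgeR adjusted p = 0.376). With library totals instead of TMM it was called lower, at -0.46.

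Among 11 other uptake and activation genes tested, 6 rose and 2 fell, while 5 fell with library totals and 6 on log2(TPM + 1). The acyl-CoA synthetase Acsl6 (2.31), the adipocyte binding protein Fabp4 (1.75) and the lipases Lipe (1.63) and Pnpla2 (1.24) rose. Slc27a4 (-0.45) and Acsl5 (-0.34) fell. The ratio of Fabp3 to Fabp4 was almost the same in both groups (log2 change 0.00, exact permutation p = 0.8). Of 15 other genes listed under mitochondrial fatty acid oxidation, 12 rose and 1 fell, against 7 and 6 on log2(TPM + 1). The list also holds genes of amino acid breakdown, so these counts are not of fatty acid oxidation alone. Acacb, which makes the malonyl-CoA that inhibits carnitine palmitoyltransferase 1, rose by 1.91. Carnitine acetyltransferase Crat (1.72), the thioesterase Acot13 (1.50) and Ivd (1.40), of leucine breakdown, also rose, while the neuronal form Cpt1c fell by 0.97.

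The peroxisomal oxidation and ketone synthesis lists had the lowest medians of these lists. The number called in each direction depended on the scaling, as it did over all genes. Of 14 peroxisomal genes, 9 rose and 1 fell, but with a median of 0.48. With library totals 6 rose and 5 fell, and on log2(TPM + 1), with 13 tested, 2 rose and 8 fell. Both scalings also moved the calls over all genes towards lower. Decr2 fell by 0.62. Of 4 genes listed under ketone synthesis, 2 were higher and 1 lower, and with library totals 0 were higher and 3 lower. Bdh2 fell by 1.98, at a low mean FPKM of 0.262 against 1.41. Bdh2 and Acat2 (0.57) were among the genes called, but neither is a core enzyme of ketone synthesis, so the counts say little about that pathway.

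Of 17 regulators of oxidative metabolism other than Ppargc1a, 10 rose and 3 fell, with a median of 0.72, while 7 fell with library totals, and on log2(TPM + 1) 7 were higher and 7 lower. Rxrg (2.61), a retinoid X receptor, and Perm1 (2.18), a muscle regulator of mitochondrial genes, rose most. Perm1 FPKM was 54.5, 54.8 and 55.2 against 16.9, 15.6 and 16.2. The estrogen-related receptors Esrrb (1.92), Esrrg (1.49) and Esrra (1.05) rose, and so did the fatty acid receptor Ppara (1.40). Its relative Ppard had a log2 fold change of 0.02 that did not pass, and with library totals it was called lower at -0.40. Ppargc1b, a relative of Ppargc1a, had -0.36 and did not pass, and with library totals it was called lower at -0.78. Ucp2 fell by 0.48.

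**Figure D5:**
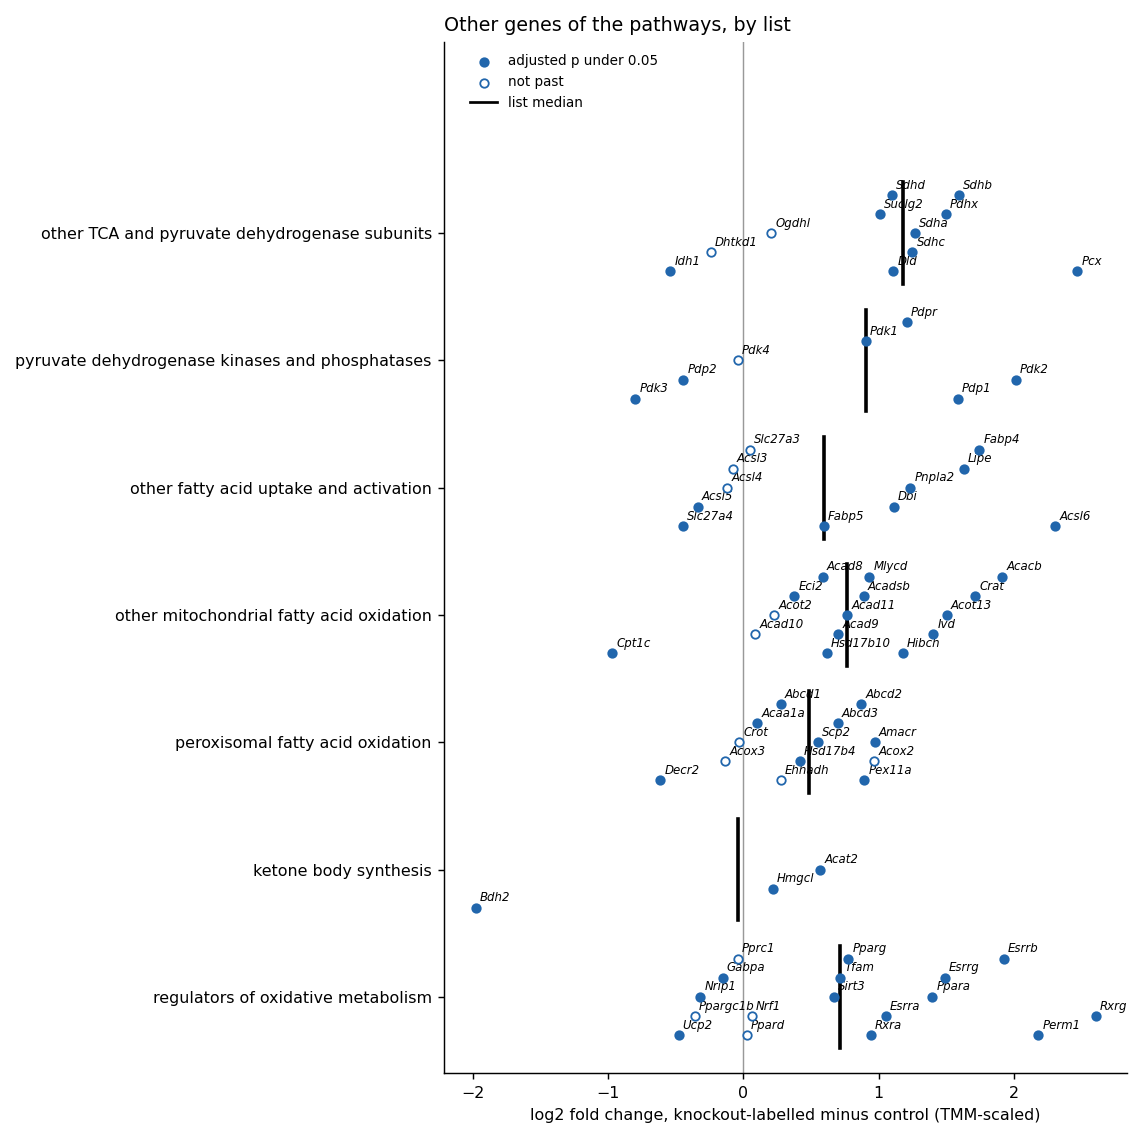
TMM-scaled log2 fold change (horizontal axis) of the other genes of the pathways in 7 lists (genes not reported here are not drawn), with filled points for an edgeR adjusted p under 0.05, open points for genes that did not pass, and a black line at each list's median. The list medians run from 1.18 for the other TCA and pyruvate enzymes to -0.04 for ketone body synthesis.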

How the data were processed

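RNA of 6 femora was sequenced as 150-base read pairs from stranded poly(A) libraries, per the labels' protocols. Tools listed in the submitters' processing notes are RSEM, StringTie, HISAT2 and fastp, with no version, and the build is GRCm39. No filter, strand setting or annotation release is given in the sources used here. The deposited tables hold FPKM and estimated counts, made by the authors, per gene and per transcript. The estimated counts were rounded to whole numbers.

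Groups came from the treatment label. Members and gene lists were chosen with earlier results of these data known. The 45 members are all described; of each other list up to 4 genes per direction by adjusted p were to be named, together with 9 preset genes, and of marker lists up to 3 by FPKM. Not all are printed, and some genes are not reported here.

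The fit used edgeR 4.0.16 in R 4.3.3 with filterByExpr, TMM and the two-sided quasi-likelihood F test. Adjustment was by Benjamini-Hochberg over 20388 genes. Group was the sole term. SEs come from log2 CPM with prior count 2. Ratios and transcript shares were compared by exact permutation over libraries. Alternatives were limma 3.58.1 on log2(FPKM + 1), log2(FPKM + 0.1) and log2(TPM + 1), DESeq2 1.42.0, other scalings, no filter, counts divided by 4, a replicate block and leaving out each library. On simulated counts for this comparison (19893 genes), edgeR called 47 of 67 genes changed 1.5-fold, 57 of 67 at 2-fold, 65 of 66 at 4-fold, and 10 unchanged genes. Few genes were changed in that simulation, unlike the data, where 57.5% of genes were called. For transcript use (3000 genes), 200 of 200 changed and 19 of 2800 unchanged genes were called. Those genes had 2 transcripts with exchanged shares and the typical spread of gene counts. The result therefore does not cover genes whose split among transcripts was unstable within a group. Floors for a count of 0 were 12 estimated counts, or 3 read pairs if 4 counts stand for 1 pair.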

Additional observations from a re-analysis of the deposited data

How the results depend on the processing

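Directions and calls of all 45 members were the same in 15 of 17 alternatives: DESeq2 size factors, library totals, upper-quartile scaling, no filter, counts divided by 4, DESeq2, limma on log2(FPKM + 1) and log2(FPKM + 0.1), the replicate block and the 6 fits without 1 library. On log2(TPM + 1) only Slc27a1 lost its call. The median log2 fold change of the members moved from 1.41 to 0.99 with library totals, 1.37 with upper-quartile scaling, 1.38 with no filter, 0.92 on log2(FPKM + 1), 0.98 on log2(FPKM + 0.1) and 0.62 on log2(TPM + 1). These scalings shifted the median of all genes too, by -0.42 with library totals, -0.37 on log2(FPKM + 1), -0.42 on log2(FPKM + 0.1) and -0.73 on log2(TPM + 1). Over all genes, library totals called 3379 genes higher and 10339 lower, log2(FPKM + 1) 2822 and 8780, log2(FPKM + 0.1) 2819 and 8754, and log2(TPM + 1) 1832 and 10738, against 5860 and 5872.

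Scaling to the skeletal muscle list, a construction that lowers all fold changes by 2.73, called 0 members higher and 45 lower, with 0 higher in each of the 7 steps and a median of -1.32. Over all genes it called 99 higher and 19366 lower. The log2 fold changes under it were Cd36 -1.21, Lpl -1.08, Fabp3 -0.98, Slc27a1 -1.84, Acsl1 -1.32, Cpt1b -0.65, Cpt2 -1.57, Slc25a20 -1.63, Acadvl -1.26, Acadl -1.38, Acadm -1.27, Acads -1.75, Echs1 -1.59, Hadh -1.53, Hadha -1.42, Hadhb -1.20, Acaa2 -1.59, Etfa -1.44, Etfb -1.59, Etfdh -1.64, Eci1 -1.36, Decr1 -1.50, Pdha1 -1.18, Pdhb -1.42, Dlat -1.23, Mpc1 -1.23, Mpc2 -1.17, Cs -1.13, Idh2 -1.43, Idh3a -0.72, Idh3b -1.24, Idh3g -1.47, Ogdh -1.29, Dlst -1.82, Sucla2 -0.93, Suclg1 -1.23, Fh1 -1.20, Mdh1 -1.30, Mdh2 -1.32, Oxct1 -1.59, Acat1 -1.64, Bdh1 -1.73, Ppargc1a -0.58 and Ucp3 -0.73. Cpt1a kept its direction.

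Replicate numbers did not pair the samples. Deviations of same-numbered libraries correlated at 0.01, 0.00 and -0.01. With the replicate block 44 members were higher and 1 lower, and 5673 of all genes were higher and 5671 lower.

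Of the gene pairs, a pseudocount of 1 moved Cpt1b/Cpt1a to 2.30, Fabp3/Fabp4 to 0.04 and Ucp3/Ucp2 to 1.85. Leaving out 1 library kept the change of Cpt1b/Cpt1a between 2.50 and 2.62 and the Idh3b share difference between 41.7 and 45.2 points. As shares of estimated counts, the difference was 0.864 points for Hadha, 3.40 for Pdhb, 3.49 for Mpc2 and 1.08 for Idh2. The low levels of Ppargc1a and Ucp3 limit their precision, with the largest SEs of the members (0.12 and 0.25). Estimated counts probably exceed the read pairs, so their error may not be that of plain counts.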
